A study of Mus musculus with 7 samples.

Results

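The respiratory chain and ATP synthase genes of the nucleus code for most subunits of the 5 protein complexes with which mitochondria turn the oxidation of fuel into ATP. They were taken by gene symbol from the protein-coding mouse genes: Nduf followed by a, b, c, s or v and a digit, Sdha to Sdhd, and every symbol that begins with Uqcr, Cox4 to Cox8 or Atp5. The rule found 85 genes of 21474, and all 85 had values. No expression value was used to choose them. Complex I had 37 genes, complex II 4, complex III 8, complex IV 18 and complex V 18. The 85 genes carry 84 symbols, because Atp5o stands under 2 Ensembl gene IDs that overlap on chromosome 16. The symbol rule also takes in genes that are not core subunits, such as Cox7a2l, which is known for assembling supercomplexes, and leaves out Ndufab1, the acyl carrier subunit of complex I.

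Polyadenylated RNA was sequenced in 7 mouse cell populations, with 1 library per population. The day 6 cells and the Tomato-positive and Tomato-negative lines came from a conversion to neural stem cells (NSC) with Oct4, Sox2, Klf4 and Myc (OSKM). The others were fibroblasts, NSC from brain and pluripotent lines. The mouse embryonic fibroblasts (MEF) came from strain A12 with the Mbd3 flox/- genotype. The day 6 library came from B6/129 cells with doxycycline-inducible OSKM at Col1a, a Nanog-CreER transgene and a Rosa26-TdTomato reporter, treated with doxycycline and 4OHT from day 1 to day 6, sorted as tdTomato positive and kept without MEF feeders. Nanog-CreER marks a cell for good once Nanog is active while 4OHT is present. The Tomato-positive and Tomato-negative OSKM NSC had the same B6/129 background and transgenes and were mechanically subcloned converted lines, grown without feeders. The brain NSC came from BDF2 embryos, with an embryonic stage that the labels give in conflicting ways, and grew with bFGF and EGF. The induced pluripotent stem cells (iPSC) were A12 with Mbd3 flox/-, with a label on feeders that the submitters marked as uncertain, and the embryonic stem cells (ESC) were the line v6.5 on MEF feeders. Where groups differ in strain, its part cannot be told apart from theirs. With 1 library per group there is no replicate error and no test, so every difference is between libraries.

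Complex I takes electrons from NADH and complex II takes them from succinate, and both pass them to ubiquinone. Complex III hands them on to cytochrome c, complex IV (cytochrome c oxidase) passes them to oxygen, and the proton gradient built on the way drives complex V, the ATP synthase. Pluripotent stem cells are known to make much of their ATP by glycolysis, and several subunits of complex IV have an alternative gene used in muscle, lung, testis or at low oxygen in place of the widely used one.

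The values are RPKM, which scale the reads of an exon to its length and to the library size, and the value of a gene is the mean over its exons weighted by exon length. The inferred depth, in units of 1000000 reads, was 19 in Tomato-positive OSKM NSC and 27 to 58 in the other 6 libraries. The labelled cell types had their defining markers. In summed RPKM, 10 fibroblast markers stood at 37628 in MEF and 12.3 to 4021 elsewhere, 10 NSC markers at 6139 to 11774 in the 3 NSC libraries and 70.6 to 262 elsewhere, and 10 pluripotency markers at 7524 in iPSC, 9777 in ESC, 1079 on day 6 and 5.62 to 14.2 elsewhere. Of the 1079 RPKM of pluripotency markers on day 6, 886 was Pou5f1, which codes for the induced factor Oct4. The ESC library, grown on feeders, held 4021 RPKM of fibroblast markers and the Tomato-positive OSKM NSC library 1977, against 110 in iPSC. The libraries also differed in how reads lay along genes. Over 73 members with 3 or more separate exons and over 5 RPKM at both ends, the median log2 ratio of the last to the first exon was -0.28 on day 6 and 0.89 in ESC, against -0.12 to 0.50 in the other 5. Within a member, the log2 ratios of single exons spanned a median of 1.97 for day 6 against MEF and 1.10 for ESC against MEF, but 0.31 to 0.46 in the 4 comparisons without either library. The part of these profiles in the gene ratios was not tested.

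The members together held a smaller share of the transcriptome in MEF and on day 6 than in the other 5 libraries. Their share of the summed RPKM of protein-coding genes was 2.49% in MEF and 2.47% on day 6. It was 3.53% in the Tomato-positive and 3.87% in the Tomato-negative converted line, 3.46% in brain NSC, and 3.78% and 3.65% in iPSC and ESC. A share also depends on the sum over all genes, which differed between libraries. The summed RPKM of the members was 23987.7 in MEF, 20341.5 on day 6, 27397.9 in brain NSC and 32584.9 to 38009.0 in the other 4. Complex IV genes held 0.682% to 0.789% in the 3 NSC libraries, 0.903% in iPSC and 1.01% in ESC, but 0.581% in MEF and 0.492% on day 6. Complex II held 0.136% to 0.165% in the NSC libraries and 0.0838% to 0.102% in the other 4. Complex V had 0.755% in MEF, 0.763% on day 6 and 1.15% to 1.39% elsewhere. Since a share of RNA is a bulk value, more such RNA per cell and more cells rich in it cannot be told apart.

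**Figure D1:**
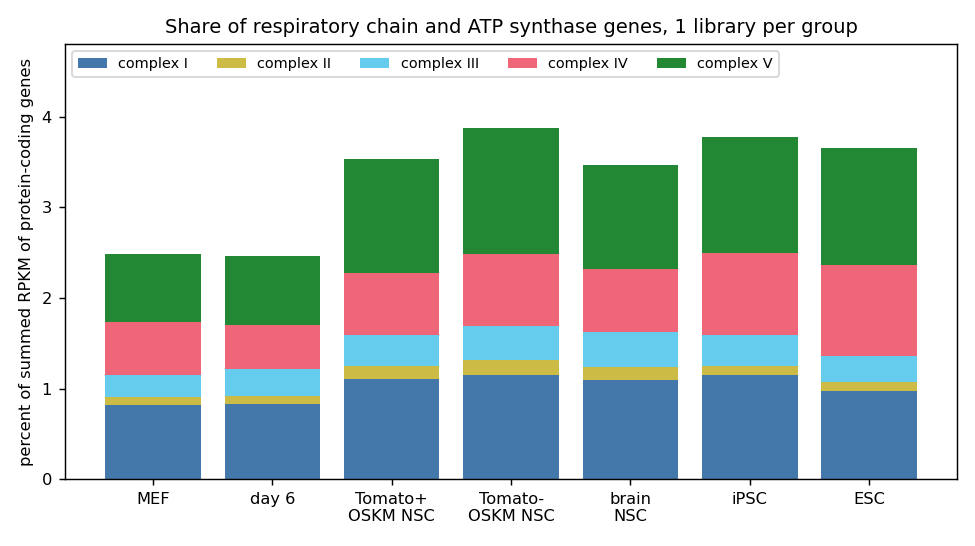
Bars give, for each of the 7 libraries, the percent of summed RPKM of all protein-coding genes that lay in the genes of complexes I to V, stacked by complex. MEF and day 6 end at 2.49% and 2.47%, and the other 5 libraries end between 3.46% and 3.87%.

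Most members were expressed in all 7 libraries, and most of these stayed within 4-fold. The same counts over all protein-coding genes were not taken, so the range is not called narrow or wide. Of the 85, 78 reached 2 RPKM in all 7 libraries, 1 (Cox8c) stayed under 2 RPKM in all, and the other 6 (Ndufa4l2, Cox4i2, Cox6a2, Cox6b2, Cox7b2 and Cox8b) were above it in some. Among the 78, the highest library stood a median of 2.46-fold above the lowest, 14 stayed within 2-fold and 61 within 4-fold. Ndufb10, an accessory subunit of complex I, had the narrowest range at 1.30-fold, followed by Ndufc1 at 1.52-fold and Atp5d, the delta subunit of ATP synthase, at 1.57-fold. The widest ranges among the 78 were those of Cox7a1 (92.1-fold), Ndufa12 (16.6-fold), Cox7a2l (13.6-fold) and Atp5g1 (11.4-fold). Atp5b, the catalytic beta subunit of ATP synthase, was the most abundant member. It stood at 1176 RPKM in MEF, at 1646 on day 6, 2941 in the Tomato-positive and 2827 in the Tomato-negative converted line, 2196 in brain NSC, and 2685 and 3882 in iPSC and ESC.

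**Figure D2:**
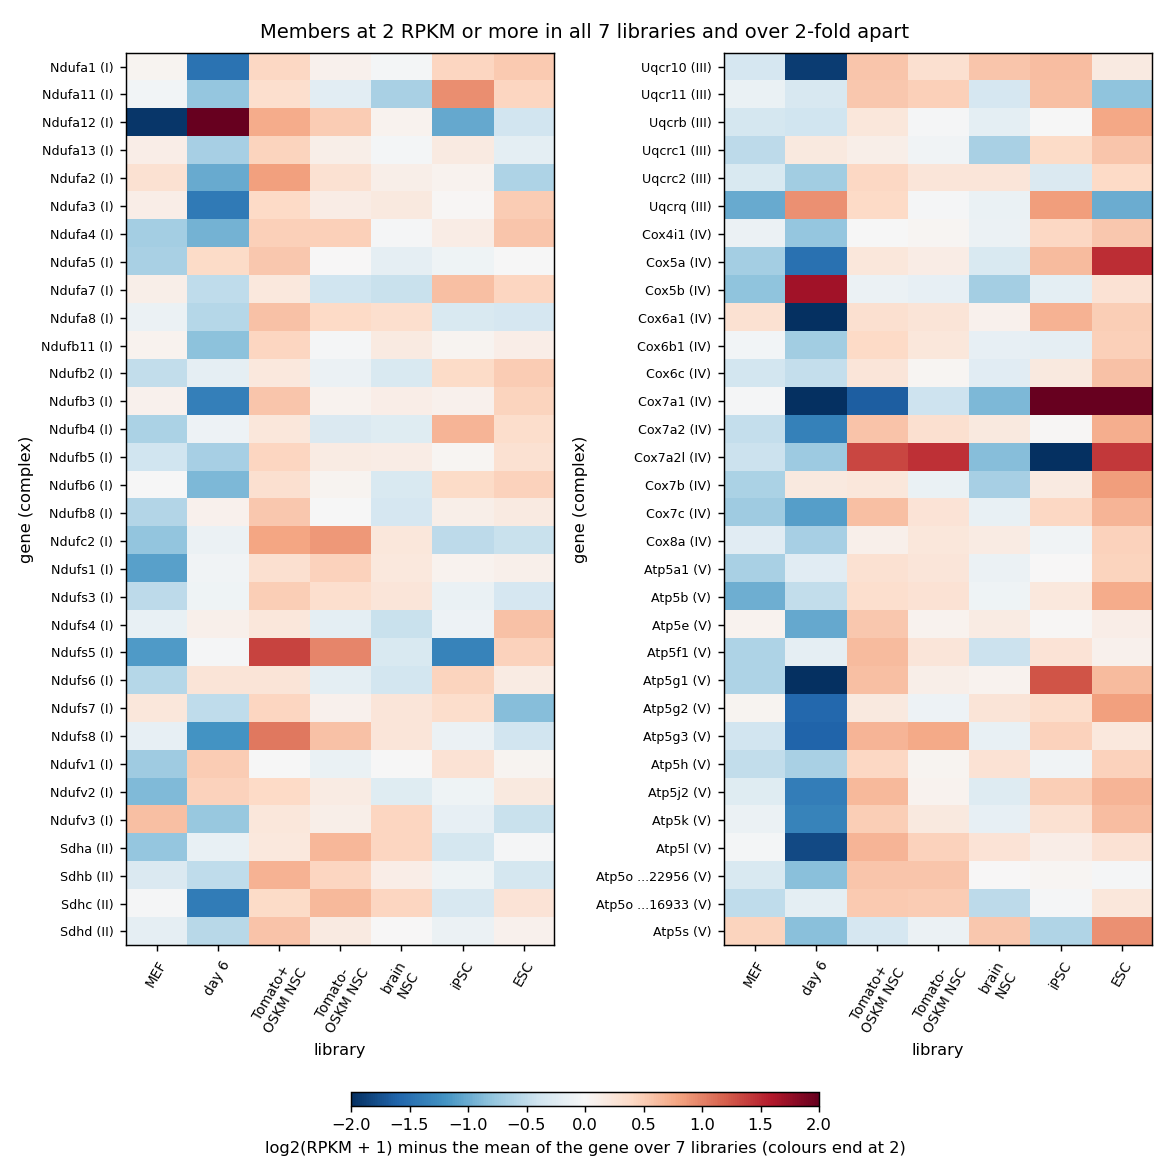
Colours give log2(RPKM + 1) of the members at 2 RPKM or more in all 7 libraries whose highest library was over 2-fold above the lowest, minus the mean of that gene over the libraries, with the complex in brackets. The day 6 column is blue for Cox6a1, Uqcr10 and the subunit c genes and red for Ndufa12 and Cox5b, and Cox7a1 is red in iPSC and ESC.

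Promoter sequences from RefSeq (GRCm38.p6), 250 bases before to 50 after the transcription start, were at hand for 68 of the 84 symbols, in 73 promoters. NRF1, YY1, the Ets factor GABP and the receptor Esrra are textbook regulators of nuclear respiratory genes, so short forms of their motifs were searched on both strands, counting overlaps of a motif with its own reverse. The NRF1 letters GCGCANGCG lay in 20 of 68 members (29.4%), against 9.6% of 17491 genes with a promoter. The YY1 letters AANATGGCG lay in 10 members (14.7%, against 3.6% of genes), the Ets letters CCGGAAGT in 5 (7.4%, against 5.7%) and the Esrra letters TCAAGGTCA in 2 (2.9%, against 0.4%). These are matches of letters and not measured binding. The 250 bases before the start are shown for 3 members of the chain and the ATP synthase that hold NRF1 or Esrra letters there, with the matches in capitals. Cox6a1 (chr5:115348959-115349208, minus strand) has NRF1 letters at 162 and 117 bases before the start, Sdha (chr13:74350241-74350490, minus strand) at 98, 55 and 10, and Atp5g3 (chr2:73911327-73911576, minus strand) has Esrra letters at 52.
Cox6a1: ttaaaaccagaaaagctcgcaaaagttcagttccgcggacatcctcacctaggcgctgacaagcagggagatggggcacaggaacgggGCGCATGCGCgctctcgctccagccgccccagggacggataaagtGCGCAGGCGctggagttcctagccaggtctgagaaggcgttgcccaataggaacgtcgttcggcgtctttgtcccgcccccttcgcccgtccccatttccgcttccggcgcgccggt
Sdha: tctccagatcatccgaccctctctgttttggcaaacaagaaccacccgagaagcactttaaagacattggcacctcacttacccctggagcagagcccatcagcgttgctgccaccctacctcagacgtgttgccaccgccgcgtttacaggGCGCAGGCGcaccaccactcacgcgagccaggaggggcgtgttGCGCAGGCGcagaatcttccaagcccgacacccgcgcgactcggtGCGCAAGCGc
Atp5g3: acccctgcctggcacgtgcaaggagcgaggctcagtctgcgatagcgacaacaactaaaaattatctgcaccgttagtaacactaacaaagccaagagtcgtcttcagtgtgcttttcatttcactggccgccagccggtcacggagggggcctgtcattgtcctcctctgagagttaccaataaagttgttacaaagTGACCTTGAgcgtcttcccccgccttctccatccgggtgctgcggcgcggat
Members with NRF1 letters did not stand far from those without. Their median log2 ratio was 0.42 for iPSC against MEF, over 21 gene IDs, and 0.44 without them, over 47. For Tomato-positive OSKM NSC against day 6 the values were 1.06 over 21 and 0.87 over 46.

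The density of CpG dinucleotides differed within pairs of a widely used and a restricted gene of complex IV, though not always in the same order. The 250 bases before the start held a median of 14 CpG dinucleotides in 73 member promoters, with quartiles of 10 and 20, against 10 in all 21262 promoters. The promoters of the Cox7a and Cox6b pairs and of Cox7b2 are shown with every CpG in capitals. They were picked because the share of the restricted gene varied widely between libraries. Cox7a2 (chr9:79759854-79760103, minus strand) and Cox6b1 (chr7:30626115-30626364, minus strand) held 14 each. Their partners Cox7a1 (chr7:30183921-30184170, plus strand) and Cox6b2 (chr7:4753095-4753344, minus strand) held 4 and 8. Cox8a and its restricted partner Cox8b, not shown, held 11 and 1. Cox7b2 (chr5:71548206-71548455, minus strand) held 9 and its widely used partner Cox7b 5, the opposite order.
Cox7a2: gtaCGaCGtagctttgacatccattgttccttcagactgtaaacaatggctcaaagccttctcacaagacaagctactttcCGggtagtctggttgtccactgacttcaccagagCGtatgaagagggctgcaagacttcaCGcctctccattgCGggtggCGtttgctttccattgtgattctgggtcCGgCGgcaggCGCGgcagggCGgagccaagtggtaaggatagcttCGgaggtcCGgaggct
Cox7a1: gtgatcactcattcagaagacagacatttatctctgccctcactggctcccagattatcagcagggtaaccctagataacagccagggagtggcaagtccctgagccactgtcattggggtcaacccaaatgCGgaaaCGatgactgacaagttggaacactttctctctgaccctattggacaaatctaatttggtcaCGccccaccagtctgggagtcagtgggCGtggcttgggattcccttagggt
Cox6b1: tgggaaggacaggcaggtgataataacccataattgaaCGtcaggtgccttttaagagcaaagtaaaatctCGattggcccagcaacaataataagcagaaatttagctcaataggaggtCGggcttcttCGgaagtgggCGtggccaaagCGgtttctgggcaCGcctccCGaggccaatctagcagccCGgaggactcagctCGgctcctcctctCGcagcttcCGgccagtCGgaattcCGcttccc
Cox6b2: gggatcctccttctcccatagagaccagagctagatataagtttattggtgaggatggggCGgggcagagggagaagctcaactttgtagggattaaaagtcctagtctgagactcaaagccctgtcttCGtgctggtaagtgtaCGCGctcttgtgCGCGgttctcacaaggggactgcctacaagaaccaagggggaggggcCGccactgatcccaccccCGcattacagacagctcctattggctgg
Cox7b2: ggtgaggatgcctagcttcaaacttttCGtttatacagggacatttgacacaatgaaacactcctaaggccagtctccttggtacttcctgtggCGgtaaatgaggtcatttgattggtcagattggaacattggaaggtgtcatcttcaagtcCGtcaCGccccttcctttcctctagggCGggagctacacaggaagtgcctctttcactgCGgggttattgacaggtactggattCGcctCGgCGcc

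Day 6 was compared with MEF, a library of another strain and genotype, so the ratios do not follow a single population over time. Ratios are log2((a + 1)/(b + 1)) in RPKM, for genes at 2 RPKM or more in either library, and a 2-fold difference is a ratio of at least 1 in size. On day 6, 8 of 82 members (background 21.0% of all protein-coding genes) were 2-fold higher than in MEF and 21 (background 32.7%) were 2-fold lower, so neither share stood above the background. Other scalings moved the median of all genes, for example from 0.52 to 0.04 for Tomato-positive OSKM NSC against day 6, and member medians are therefore read against those of all genes. The median member ratio was -0.27 and that of all genes -0.18. Scaled to equal totals without Gm42418, a gene model that overlaps ribosomal RNA, the split was 14 higher and 16 lower. The median of all genes was then 0.11. The 2-fold lower members were spread unevenly, with 8 of 18 in complex V, 4 of 15 in complex IV, 7 of 37 in complex I and 1 each of 4 and 8 in complexes II and III. Complex I also had 6 of the 8 that were higher. The largest ratios were 3.97 for Ndufa12, 2.48 for Cox5b and 1.93 for Uqcrq on the higher side and -6.94 for Cox4i2, -6.44 for Ndufa4l2, -2.99 for Cox7a1 and -2.44 for Cox6a1 on the lower side. Cox6a2 followed at -2.01, Atp5l, a small subunit of the ATP synthase membrane part, at -1.76 and Atp5g2 at -1.64. Of the sequence of Atp5l, 94.7% also stands in transcripts of other genes, as does all of that of Atp5g2, so both ratios are uncertain.

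Against day 6, 73 of 82 members stood above 0 in Tomato-positive OSKM NSC, where 8973 of all 13215 genes did, and 65 of 81 in Tomato-negative OSKM NSC, where 7983 of 13110 did. In Tomato-positive OSKM NSC 37 of 82 members were 2-fold higher than on day 6 (background 34.5%) and 3 were 2-fold lower (background 12.4%), with a median of 0.88 against 0.52 for all genes. All 18 complex V genes and 4 complex II genes were among those above 0. In Tomato-negative OSKM NSC 23 of 81 were 2-fold higher (background 31.1%) and 3 lower (background 16.9%), with a median of 0.74 against 0.36. With median-of-ratios scaling the first split was 21 higher and 5 lower, and the median of all genes was 0.04. The 2 comparisons share the day 6 library. The 3 lower members were Ndufa12, Cox5b and Cox6b2 in each. Large higher ratios in both lines included Atp5g1 (2.66 in the Tomato-positive and 2.16 in the Tomato-negative converted line) and Atp5l (2.48 and 2.26). Cox6a1 (2.46 and 2.40), Uqcr10 (2.45 and 2.22) and Atp5g3 (2.28 and 2.36) were also among them. Larger still in the Tomato-negative line were the ratios of Cox6a2 (38.5 RPKM against 0.485 on day 6) and Cox7a1 (22.1 against 2.82). Without exons whose sequence is copied elsewhere, the ratio of Cox6a1 was 0.20 in the Tomato-positive and -0.20 in the Tomato-negative converted line. Every exon of Atp5l had 87.3% or more of its sequence copied elsewhere, so Atp5l has no such ratio and its values are uncertain.

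The pluripotent lines, which share the MEF library as reference, had more members above MEF than below. In iPSC 12 of 83 members were 2-fold higher (background 25.5%) and 5 lower (background 28.5%), with a median of 0.42 against 0.04 for all genes. In ESC 20 of 83 were 2-fold higher (background 27.3%) and 5 lower (background 25.1%), with a median of 0.64 against 0.13. The shift was broad and mostly under 2-fold, since 66 members in iPSC and 70 in ESC were above 0, against 7091 of all 13940 genes in iPSC and 7457 of 14002 in ESC. At equal totals the iPSC split was 24 higher and 4 lower, with a median of all genes of 0.27. With median-of-ratios factors the split was 6 and 6 in iPSC and 9 and 6 in ESC. The medians of all genes were then -0.23 and -0.19. The complex IV median was 0.55 in iPSC and 1.12 in ESC, and the complex V median 0.42 and 0.71. The leading higher members were Cox7b2 at 5.11 and Cox7a1 at 2.94 in iPSC, and the same genes at 6.08 and 3.10 in ESC. The 5 lower members were Cox4i2, Ndufa4l2, Cox7a2l, Cox6a2 and Atp5s in iPSC and Cox4i2, Ndufa4l2, Cox6a2, Ndufs7 and Ndufv3 in ESC.

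Brain NSC differed little from MEF in these genes. A total of 6 of 83 members were 2-fold higher (background 21.7%) and 3 lower (background 23.4%), with a median of 0.20 against 0.15. The higher members were Ndufa12, Cox8b, Ndufs1, Cox6a2, Sdha and Ndufc2, at ratios of 1.01 to 2.01, and the lower ones Ndufa4l2, Cox6b2 and Cox4i2, at -7.96 to -7.63. Equal totals gave 9 and 3, and median-of-ratios factors 4 and 4. By member medians, Tomato-negative OSKM NSC lay closer to brain NSC than Tomato-positive OSKM NSC did. Against brain NSC, 71 of 83 members were above 0 in the Tomato-positive line, where 7644 of all 12844 genes were. In the Tomato-negative line 66 of 82 were, and 6829 of all 12349 genes. Tomato-positive OSKM NSC had 7 of 83 members 2-fold higher than brain NSC (background 22.3%) and 2 lower (background 11.6%), with a median of 0.48 against 0.24 for all genes. Median-of-ratios factors gave 4 and 3, and moved the median of all genes to -0.04. Cox6b2, Ndufa4l2, Cox7a2l, Cox4i2, Ndufs5, Atp5f1 and 1 of the 2 Atp5o IDs were higher, and Cox8b and Cox6a2 lower. Tomato-negative OSKM NSC had 6 of 82 higher (background 10.4%) and 1 lower (background 6.94%), with a median of 0.18 against 0.08. Cox6b2, Cox7a2l, Ndufa4l2, Cox6a2, Ndufs5 and the same Atp5o ID were higher in it, and Cox8b was lower. That ID, ENSMUSG00000116933, stood at 363 and 359 RPKM in the converted lines and 176 in brain NSC, and its 3 exons are all shared with another gene and copied in full. The other ID, ENSMUSG00000022956, was not 2-fold apart, with 979.7 and 982 RPKM in the converted lines and 669.7 in brain NSC.

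**Figure D3:**
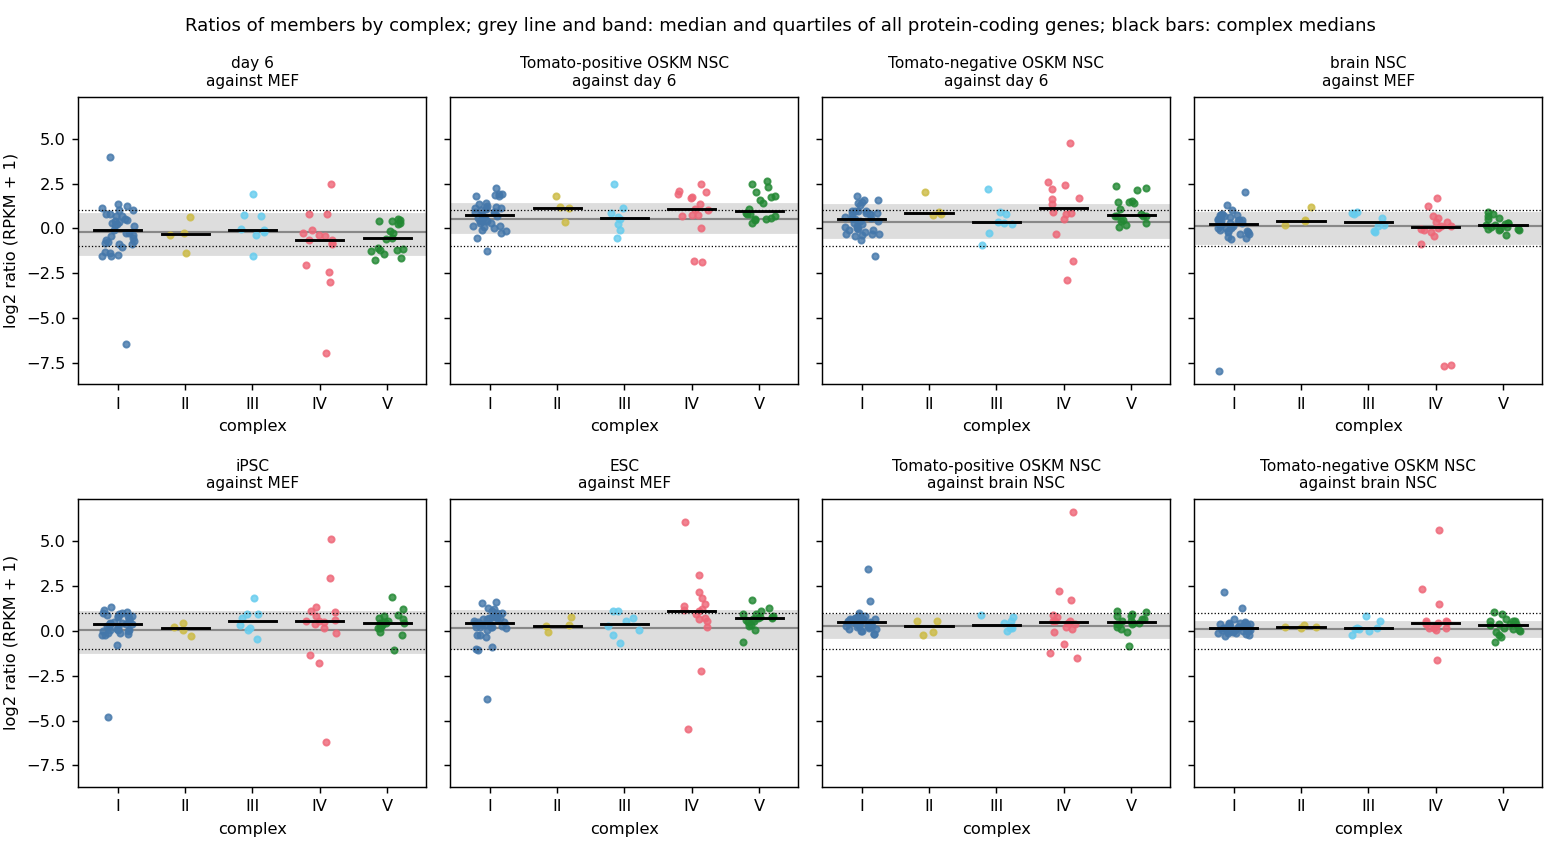
Each point is the log2 ratio of a member at 2 RPKM or more in either library, by complex, in the 8 comparisons, with dotted lines at 2-fold. Black bars are complex medians, and the grey line and band are the median and quartiles of all protein-coding genes. The members sit in narrow groups with a few complex I and IV genes far outside them, and all complex V points are above 0 in both converted lines against day 6.

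Within complex I the core subunits differed in both directions. Ndufs1, the largest core subunit with iron-sulfur clusters, stood at 73.0 RPKM in MEF, at 149 on day 6, 196 in the Tomato-positive and 217 in the Tomato-negative converted line, 182 in brain NSC, and 165 and 168 in iPSC and ESC. MEF was the lowest library and all 19 exons compared were higher in brain NSC, iPSC and ESC. The fold over MEF was 2.49 in brain NSC (95% exact interval of the read ratio 2.43 to 2.56), 2.26 in iPSC (2.23 to 2.34) and 2.29 in ESC (2.27 to 2.39), where intervals here and below cover counting error only. Ndufv1, which binds NADH, stood at 122 RPKM in MEF and 288 on day 6, and between 184 and 248 in the other 5. Ndufv2, its partner, stood at 139 RPKM in MEF, at 354 on day 6 and 219 to 338 elsewhere.

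The small accessory subunits of complex I made up most of its low values on day 6. Ndufa1 stood at 219 RPKM in MEF, at 75.3 on day 6, 280 and 224 in the converted lines, 206 in brain NSC, and 283 and 305 in iPSC and ESC. Day 6 lay below all the others, and MEF was 2.91-fold above it (2.74 to 3.09). Ndufa3 stood at 470 RPKM in MEF, at 161 on day 6 and 440 to 613 in the other 5. Ndufb3 stood at 46.2 on day 6 and 128 to 178 in the other 6, and Ndufa2 at 175 on day 6 and 229 to 624 in the other 6. Ndufs8, a core subunit with iron-sulfur clusters, stood at 97.6 RPKM on day 6, 468 in the Tomato-positive and 339 in the Tomato-negative converted line, 265 in brain NSC and 172 to 207 in the other 3. Its 7 exons were all higher in both converted lines than on day 6. Ndufa4, now counted by many as part of complex IV, was the most abundant gene of this set, from 580 RPKM on day 6 to 1641 in ESC, and Ndufb2 the least, from 21.6 in MEF to 44.4 in ESC.

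Other accessory genes, Ndufa12, Ndufa5 and Ndufs5, stood 2-fold above MEF on day 6, and for Ndufa12 day 6 was the highest library. Ndufa12 stood at 16.4 RPKM in MEF, at 271 on day 6, 111 and 93.4 in the 2 converted lines, 69.2 in brain NSC, and 31.7 and 50.1 in iPSC and ESC. All 4 exons compared were higher on day 6 than in MEF, but 31.9% of its sequence in words of 25 bases also stands in transcripts of other genes. Ndufa5 stood at 114 RPKM in MEF and 236 on day 6, with 159 to 262 in the other 5 libraries. Ndufs5 stood at 18.1 RPKM in MEF, at 40.3 on day 6, 106 and 80.8 in the converted lines, 33.0 in brain NSC, and 15.5 and 56.5 in iPSC and ESC. Without its exons of copied sequence, the ratio of day 6 to MEF turned from 1.11 to -0.67, while the first exon still stood at 47.4 in the Tomato-positive and 28.3 in the Tomato-negative converted line and 24.9 in ESC, against 3.26 to 7.16 in the other 4.

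Sdha and Sdhb were highest in the NSC libraries. Sdha, the flavin-bearing subunit that oxidises succinate, stood at 160 RPKM in MEF, at 247 on day 6, 317 in the Tomato-positive and 432 in the Tomato-negative converted line, 368 in brain NSC, and 213 and 269 in iPSC and ESC. The 3 NSC libraries did not overlap the other 4, and brain NSC was 2.29-fold above MEF (2.25 to 2.33) with all 15 exons higher. Sdhb, the iron-sulfur subunit, stood at 589, 489 and 398 in Tomato-positive, Tomato-negative and brain NSC and at 255 to 342 in the other 4. Sdhc, a membrane anchor, stood at 57.3 RPKM on day 6 and 121 to 239 in the other 6, and Sdhd, the other anchor, ranged from 153 on day 6 to 335 in Tomato-positive OSKM NSC, with 227 in brain NSC and 240.4 in ESC.

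In complex III, Uqcr10 and Uqcrq differed from MEF in opposite directions on day 6. Uqcr10, a small subunit, stood at 350 RPKM in MEF, at 118 on day 6, 647 and 553 in the converted lines, 650 in brain NSC, and 678 and 501 in iPSC and ESC. Day 6 was 2.97-fold below MEF (2.84 to 3.12). Uqcrq, a small subunit too, stood at 60.8 RPKM in MEF, at 234 on day 6, 162 and 121 in the converted lines, 113 in brain NSC, and 221 and 61.6 in iPSC and ESC. Uqcrc1, a core protein, was highest in ESC at 645 and iPSC at 571, against 279 in brain NSC and 304 in MEF. Uqcrfs1, the Rieske iron-sulfur protein, ranged only from 103 in MEF to 203 in Tomato-negative OSKM NSC. Uqcrh, the hinge protein, was the most abundant, from 708 in iPSC to 1291 in Tomato-positive OSKM NSC.

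In complex IV the widely used subunits were highest in ESC, except Cox5b and Cox6a1. Cox5a stood at 378 RPKM in MEF, at 216 on day 6, 715 and 675 in the converted lines, 493 in brain NSC, and 941 and 1687 in iPSC and ESC. It was 4.46-fold higher in ESC than in MEF (4.35 to 4.55) and 2.49-fold in iPSC (2.41 to 2.52), with all 5 exons higher in both, although 54.2% of its words of 25 bases also stand in other transcripts. Cox4i1, the large regulatory subunit, ranged from 796 RPKM on day 6 to 1980 in ESC, Cox7b from 231 in brain NSC to 660 in ESC, and Cox7c from 37.6 on day 6 to 131 in ESC. Cox6c ranged from 357 on day 6 to 745 in ESC. Cox5b stood at 54.2 RPKM in MEF, at 308 on day 6 and 59.3 to 116 in the other 5.

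On day 6, 12 of the 18 complex V genes were below MEF, where 7401 of all 13534 genes were, and 8 were 2-fold lower (background 32.7%). All 18 were higher in both converted lines than on day 6. Of all genes, 8973 of 13215 were higher in Tomato-positive and 7983 of 13110 in Tomato-negative OSKM NSC. Atp5g3, the most used gene of the rotor ring subunit c, stood at 683 RPKM in MEF, at 293 on day 6, 1429 in the Tomato-positive and 1507 in the Tomato-negative converted line, 804 in brain NSC, and 1230 and 1029 in iPSC and ESC. Both converted lines lay above every other library. The first exon row of Atp5g3 stood at 317 RPKM on day 6 against 118 in MEF, and its last at 148 against 634. Atp5k stood at 314 on day 6 and 710 to 1214 in the other 6, and Atp5j2 at 176 on day 6 and 388 to 745 in the other 6. Atp5e, the epsilon subunit, stood at 221 on day 6 and 456 to 654 in the other 6. The 6 genes above MEF on day 6 were Atp5a1, Atp5b, Atp5c1, Atp5f1, Atp5j and 1 ID of Atp5o, at ratios of 0.26 to 0.50. Atp5a1, the alpha subunit, stood at 646 RPKM in MEF, at 866 on day 6 and 931 to 1382 in the other 5. By gene value MEF was thus lowest, as for Atp5b. Along Atp5a1, exon rows 1 to 9 from the 5' end were higher on day 6 than in MEF and rows 10 to 16 were lower. Atp5b was 2.28-fold above MEF in iPSC (2.27 to 2.30) and 3.30-fold in ESC (3.28 to 3.33). Atp5s, a coupling factor and the least abundant gene of this set, stood at 17.7 RPKM in MEF, at 6.73 on day 6 and 8.03 to 24.9 elsewhere.

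The subunit c proteins come from 3 genes with the same mature product, and their balance varied. By the weighted mean, Atp5g3 gave 64.0% to 82.9% of the summed RPKM of the 3, Atp5g2 15.5% to 33.3% and Atp5g1 1.45% to 3.93%. Atp5g1 has long exons of low coverage that pull its mean down, and by the highest exon of each gene it gave 5.39% on day 6, 20.7% in iPSC and 5.76% to 12.3% elsewhere. Atp5g1 stood at 66.1 RPKM in iPSC against 5.80 on day 6 and 17.5 to 42.7 in the other 5. Every word of Atp5g2 also stands in another transcript, so its share is uncertain.

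The restricted partners of widely used subunits differed by far more than the widely used genes. Ndufa4l2 (ENSMUSG00000040280, chr10:127514967-127517154) and Cox4i2 (ENSMUSG00000009876, chr2:152754173-152765037) are both known to be induced at low oxygen. Ndufa4l2 stood at 502 RPKM in MEF, at 4.81 on day 6, 21.2 and 8.18 in the converted lines, 1.02 in brain NSC, and 17.1 and 35.6 in iPSC and ESC. MEF was 104-fold above day 6 (71.5 to 107) and 492-fold above brain NSC (354 to 1816), with all 4 exons in the same direction. In MEF it gave 42.0% of the sum with Ndufa4, and at most 2.12% in any other library (53.1% and 4.79% by the highest exon). Cox4i2 stood at 198 RPKM in MEF, at 0.617 on day 6, 2.31 and 0.696 in the converted lines, 1.73 in iPSC and 3.52 in ESC, with no read in brain NSC. Its level in MEF was 321-fold above day 6 (193 to 427) and 114-fold above iPSC (95.0 to 149). Against the floor of 3 reads it was at least 1487-fold lower in brain NSC than in MEF. Cox4i2 gave 13.7% of the Cox4 sum in MEF and at most 0.178% elsewhere. MEF also held 4826 RPKM in 8 macrophage and neutrophil markers and 614 in 12 striated muscle markers, against 9.23 to 166 and 8.32 to 80.9 elsewhere, and the part of such cells in these 2 genes was not tested.

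Cox6b2 (ENSMUSG00000051811, chr7:4751792-4753094), known as the testis form of subunit VIb, was abundant in 4 libraries and near absent in brain NSC. It stood at 255 RPKM in MEF, at 450 on day 6, 122 and 60.5 in the converted lines, 0.255 in brain NSC, and 520 and 569 in iPSC and ESC. Brain NSC held 2 reads, and the fold over it was 999 in MEF (348 to 10398), 477 in Tomato-positive OSKM NSC (166 to 4972) and 237 in Tomato-negative OSKM NSC (80.8 to 2422). The widely used Cox6b1 stood at 1144, 740, 1569, 1396, 1068, 1055 and 1655 RPKM in that order. The converted and the brain-derived NSC therefore differed in the share of Cox6b2, which was 7.19% and 4.16% in the converted lines and 0.0239% in brain NSC. On day 6 it was 37.8%, in iPSC 33.0%, in ESC 25.6% and in MEF 18.2%. Shares from each gene's highest exon were larger, at 69.1% on day 6, 52.9% in iPSC, 40.3% in ESC, 33.0% in MEF, 16.0% and 9.10% in the converted lines and 0.214% in brain NSC. None of its sequence is copied elsewhere in the transcripts searched.

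Cox7a1 (ENSMUSG00000074218, chr7:30184144-30186078), known from heart and skeletal muscle, and Cox7b2 (ENSMUSG00000049387, chr5:71442824-71548205), known from testis, were highest in the 2 pluripotent lines. Cox7a1 stood at 29.4 RPKM in MEF, at 2.82 on day 6, 8.85 and 22.1 in the converted lines, 15.6 in brain NSC, and 233 and 260 in iPSC and ESC. It was 7.91-fold above MEF in iPSC (7.41 to 9.34) and 8.84-fold in ESC (8.28 to 10.5), with all 4 exons higher. Its share of the sum with Cox7a2 was 32.6% in iPSC and 24.7% in ESC, against 1.24% to 7.94% in the other 5. By the highest exon of each gene it was 20.1% in iPSC, 15.9% in ESC and 0.654% to 4.38% in the others. Striated muscle markers did not go with it: the 12 summed to 30.7 RPKM in iPSC and 44.1 in ESC, with 8 of 12 under 2 RPKM in each, and to 614 in MEF. Cox7b2 reached 37.7 RPKM in iPSC and 75.2 in ESC, with 0.123 in MEF, 0.321 on day 6, 0.0971 in Tomato-positive OSKM NSC and no read in Tomato-negative OSKM NSC or brain NSC. The ratio to the 3 reads in MEF was 307 in iPSC (105 to 1489) and 611 in ESC (209 to 2967). It gave 8.29% and 10.2% of the sum with Cox7b there, or 4.74% and 5.96% by the highest exon. Of the 8 testis and germ line markers, 3 were under 2 RPKM in iPSC and 2 in ESC, and their sum was 195 and 401 RPKM, led by Dazl, against 6.69 to 48.5 in the other 5.

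The day 6 library held 886 RPKM of Pou5f1, which codes for Oct4, 1 of the 4 induced factors, but it did not have the pluripotent levels of all these genes. Cox6b2 on day 6 was near its level in iPSC and ESC, whereas Cox7a1 and Cox7b2 on day 6 were at 2.82 and 0.321 RPKM.

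Cox6a2, the muscle form of subunit VIa, was highest in Tomato-negative OSKM NSC. It stood at 4.98 RPKM in MEF, at 0.485 on day 6, 4.93 in the Tomato-positive and 38.5 in the Tomato-negative converted line, 13.2 in brain NSC, and 1.34 and 0.257 in iPSC and ESC. The level in Tomato-negative OSKM NSC was 2.92-fold that in brain NSC (2.65 to 4.24), and in Tomato-positive OSKM NSC brain NSC was 2.68-fold higher (1.77 to 4.77). Even at its highest it gave 5.22% of the sum with Cox6a1, and the muscle markers summed to 9.17 RPKM in that library with 10 of 12 under 2 RPKM. Cox8b, also a muscle form, reached 3.17 RPKM in brain NSC and at most 0.437 elsewhere, and Cox8c reached 0.865 in iPSC, with no read in 5 libraries. Cox8a gave at least 99.5% of the Cox8 sum in every library.

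Cox7a2l divided the libraries in another way. It stood at 45.8 RPKM in MEF, at 37.5 on day 6, 160 and 173 in the converted lines, 34.2 in brain NSC, and 12.7 and 168 in iPSC and ESC. In its last exon in the file, the only one of 3 with no copied sequence, the values were 50.9, 63.3, 288, 313, 8.05, 3.25 and 330 RPKM in that order. The 2 pluripotent lines thus stood at opposite ends, and the 2 converted lines were far above brain NSC. The labels give A12 for iPSC and MEF, B6/129 for day 6 and the converted lines, and BDF2 for brain NSC. MEF and iPSC thus share a strain label, as do day 6 and the converted lines. Between libraries with unlike labels, strain cannot be told apart from cell type.

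**Figure D4:**
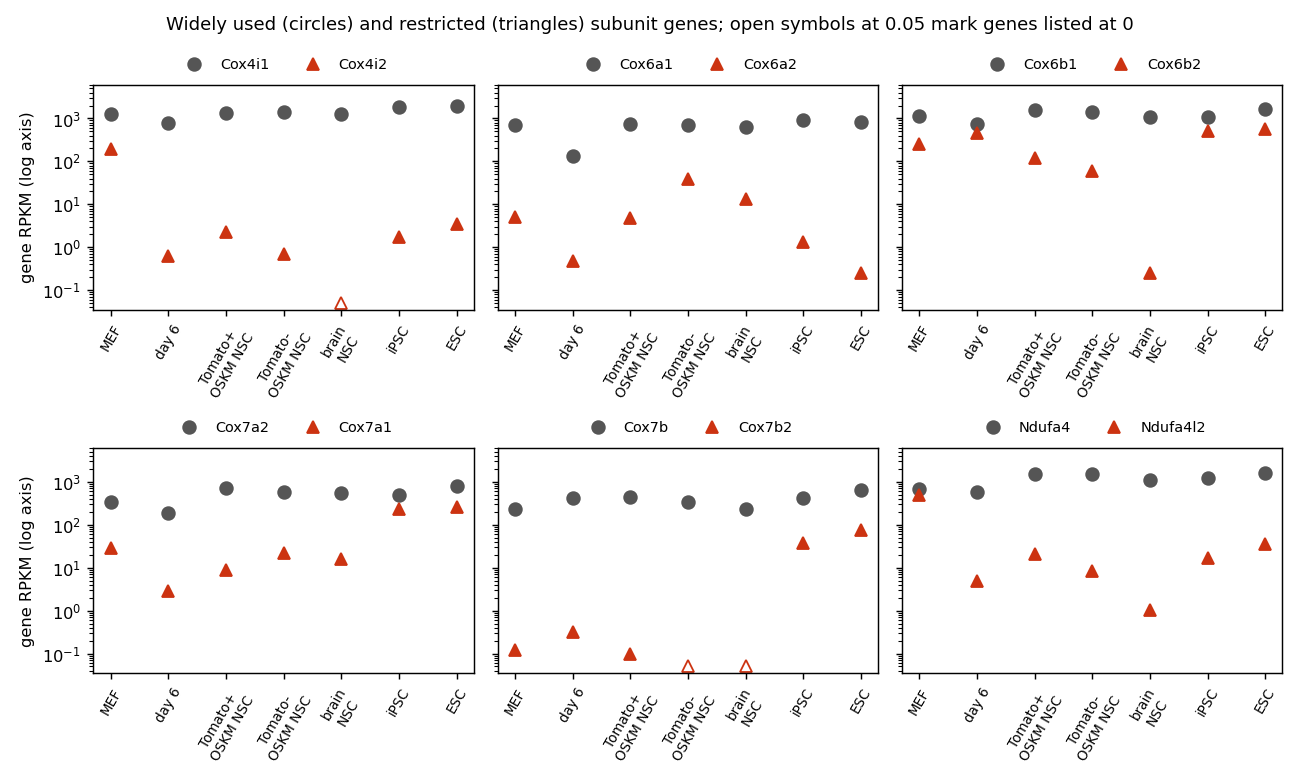
Gene RPKM on a log axis in the 7 libraries for 6 pairs of a widely used subunit gene (circles) and its restricted partner (triangles), with open triangles at the bottom for a gene listed at 0. Ndufa4l2 comes close to Ndufa4 only in MEF, and Cox7a1 comes close to Cox7a2 only in iPSC and ESC.

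Several of the largest day 6 ratios rested on an unlike pattern of exons. In Cox5b the first exon stood at 593 RPKM on day 6 and 0.730 to 3.14 in the other 6 libraries, while the last exon stood at 34.3 on day 6 and 89.2 to 200 in the others. The 4 exons thus ran from high to low on day 6 and from low to high elsewhere, and 3 of 4 were above MEF. In Ndufa12 the first 3 exon rows stood at 417, 578 and 850 RPKM on day 6 and at 0.693 to 98.3 in the others, whereas the last, of 268 bases, stood at 347 on day 6 against 37.1 to 289. Cox6a1 was the reverse. Its gene value was 132 RPKM on day 6 and 624 to 947 in the other 6, with 2 of 3 exons lower than in MEF. Its first exon, the only one with under 10% of copied sequence, stood at 24.8 on day 6 against 7.77 in MEF, so that by this exon alone the ratio to MEF was 1.56 in place of -2.44. Reads of these genes and of their copies cannot be told apart.

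**Figure D5:**
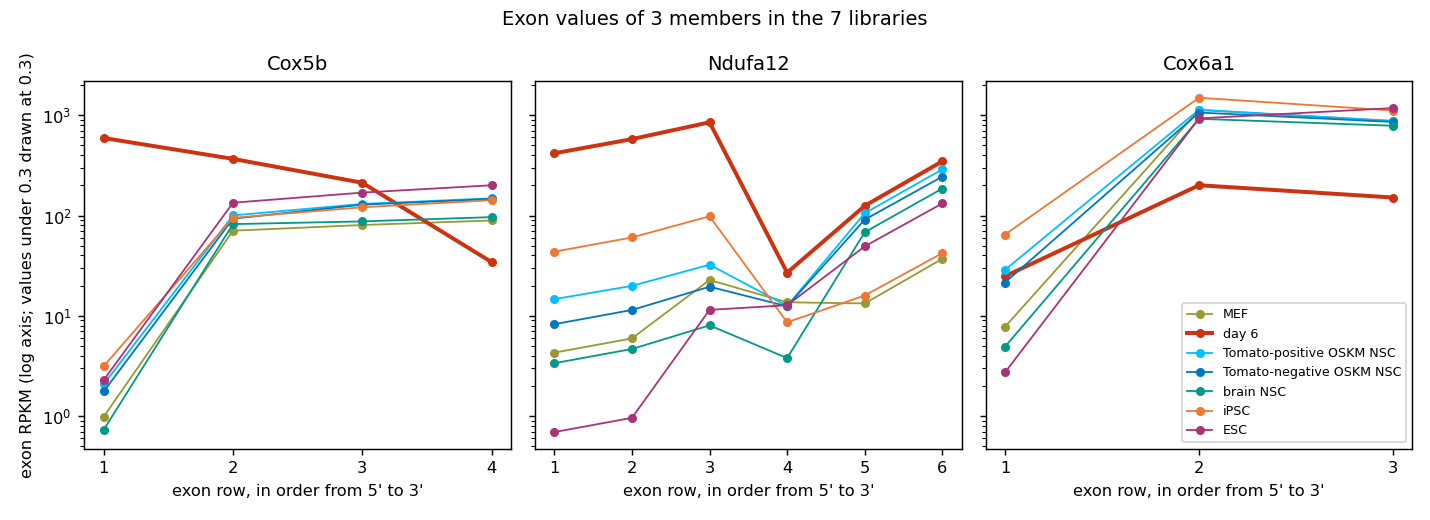
Exon RPKM on a log axis along Cox5b, Ndufa12 and Cox6a1, with exon rows in order from the 5' to the 3' end and 1 line per library. The thick day 6 line starts far above the others in Cox5b and Ndufa12 and ends below them in Cox5b, and it runs below them over the last 2 exons of Cox6a1.

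Genes that serve the chain without being among the 85 were counted from lists, with the same 2-fold rule against MEF. The background for these counts was 21.0% of all genes higher and 32.7% lower on day 6, 21.7% and 23.4% in brain NSC, 25.5% and 28.5% in iPSC, and 27.3% and 25.1% in ESC. The 13 subunits coded by the mitochondrial chromosome had 1 exon each in the file, and all 13 were listed at 0 in all 7 libraries, so they were not measured here. Of 45 assembly factors, 8 were 2-fold higher and 5 lower on day 6 than in MEF, and 14 were higher in iPSC (1 lower) and 14 in ESC (0 lower). Coa3, which assembles complex IV, stood at 19.4 RPKM on day 6 and 64.9 to 124 in the other 6. Cox20 and Cox14, which act in the same assembly, were also lowest on day 6, at 39.8 and 31.2 RPKM. Sco1, a copper chaperone of complex IV, stood at 8.89 RPKM in MEF and 34.3 on day 6.

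The carriers around the chain held another testis gene with the pattern of Cox7b2. Cyct, the testis form of cytochrome c, reached 24.8 RPKM in iPSC and 89.7 in ESC and stood at 0.226 or less in the other 5, while the widely used Cycs ranged from 20.0 in MEF to 125 in Tomato-positive OSKM NSC. Slc25a31, the germ line ADP/ATP carrier, reached 9.27 RPKM in iPSC and 12.4 in ESC and at most 1.81 elsewhere. Slc25a5, the main carrier of growing cells, stood at 168 RPKM in MEF, at 446 on day 6, 1372 and 1272 in the converted lines, 925 in brain NSC, and 429 and 595 in iPSC and ESC. Ucp2, which exports metabolites from mitochondria, stood at 0.0554 RPKM in brain NSC, 7.02 in Tomato-negative and 41.9 in Tomato-positive OSKM NSC and 67.2 to 101 in the other 4. Of the carriers at 2 RPKM or more in either library, 10 of 26 in iPSC, 12 of 26 in ESC and 7 of 24 on day 6 were 2-fold above MEF, and 2, 1 and 2 were 2-fold below it.

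Regulators of mitochondrial number also differed by cell type. Ppargc1a, a coactivator of respiratory genes, stood at 8.61, 31.1 and 32.3 RPKM in Tomato-positive, Tomato-negative and brain NSC and at 0.513 or less in the other 4. Esrrb, an orphan receptor of pluripotent cells, stood at 313 RPKM in iPSC, 216 in ESC, 15.7 on day 6 and at most 3.34 elsewhere. Of 19 genes of biogenesis and genome maintenance, 11 in iPSC, 9 in ESC and 8 on day 6 were 2-fold above MEF, and 0, 1 and 0 were lower. Lrpprc, which stabilises mitochondrial messages, stood at 21.6 RPKM in MEF and 83.0 to 130 in the other 6.

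Genes of lactate production and the response to low oxygen did not share 1 pattern. Of 16, 10 were 2-fold lower on day 6 than in MEF, 9 in iPSC, 9 in ESC and 6 in brain NSC, and 1, 2, 3 and 3 were 2-fold higher. Their median ratio was -1.68 on day 6, -1.45 in iPSC, -1.35 in ESC and -0.06 in brain NSC. Car9 stood at 84.3 RPKM in MEF and 0.143 to 1.82 in the other 6. Slc16a3, a lactate exporter, stood at 231 RPKM in MEF and 0.150 to 31.7 elsewhere, and Egln3, a prolyl hydroxylase that is itself induced at low oxygen, at 104 in MEF and 5.80 to 47.5 elsewhere. Bnip3 did not set MEF apart, with 233 RPKM in MEF and 214 in brain NSC. Vegfa was highest in brain NSC at 1169 RPKM, against 203 in MEF. Hk2, a hexokinase, stood at 114 RPKM on day 6 and 104 in both iPSC and ESC. It was at 30.8 in MEF and 21.9 to 48.5 in the NSC libraries. Of the 20 genes of the tricarboxylic acid cycle and pyruvate dehydrogenase, 7 in brain NSC, 6 in ESC, 3 in iPSC and 4 on day 6 were 2-fold above MEF, and only Mpc2, a subunit of the pyruvate carrier, in iPSC was 2-fold below, at 28.1 against 59.4 RPKM.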

How the data were processed

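Polyadenylated RNA of 7 mouse cell populations, 1 library each, was read from a table of exon values that the authors deposited. The deposited values are RPKM, per the column names and values; per the submitters' processing notes the tools were CASAVA 1.8.2, Bowtie, TopHat2 2.0.10 and bedtools on mm10. Use of strand is not given in the sources used here, so a gene and an overlapping antisense gene cannot be told apart.

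Exon IDs were matched to GENCODE M21 (GRCm38), 270168 of 279252 (96.7%). Gene values are exon means weighted by length. Depth was inferred from the steps of low values, at which 96.8% to 97.1% of values came out as whole reads within 0.02 reads. Ratios used a pseudocount of 1 RPKM and a minimum of 2 RPKM in either library. With 1 library per group no test was made. Intervals are exact (Clopper-Pearson, 95%) on reads, cover counting error only, and are given where they hold the RPKM ratio; a floor of 3 reads stands for 0. Copied sequence is the share of 25-base words of a member that occur in transcripts of other genes. The members and lists were chosen with earlier results of these data known. Named genes were the subunit pairs, the most and least abundant and the catalytic members of each complex, the members past 2-fold (at most 8 per direction), and leading genes of each list. A catalytic member is not reported here. Summed markers were of 9 cell types; neuron markers were 221 to 343 RPKM in the 3 NSC libraries and 7.94 to 85.2 elsewhere, epithelial markers 1650 on day 6 and 0.415 to 738 elsewhere, and brown fat markers 123 in MEF and 6.06 to 40.3 elsewhere. Python 3.11.15, pandas 2.3.3, numpy 2.4.6, scipy 1.17.1 and matplotlib 3.10.9 were used, and the scripts were tested on simulated data. Alternatives were 2 scalings, other pseudocounts and minimums, other gene values, and 2 chosen after seeing the data.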

Additional observations from a re-analysis of the deposited data

How the results depend on the processing

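No paired analysis was possible because each group has 1 library, and for the same reason no library could be left out. Of 264 counts and medians under 11 alternatives, 244 stayed within 1.5 times or 0.25 of the reported value. The share of all genes past 2-fold was not taken under the alternatives, so their counts have no background beside them. With median-of-ratios scaling, the members 2-fold higher were 21 for Tomato-positive OSKM NSC against day 6 (with 5 lower), 6 for iPSC against MEF, 9 for ESC against MEF and 4 for Tomato-positive OSKM NSC against brain NSC. Equal totals gave 24 higher for iPSC against MEF. Equal totals without Gm42418, chosen after seeing the data, gave 24 there and 14 for day 6 against MEF. With the highest exon of each gene, 35 were higher for Tomato-negative OSKM NSC against day 6 and 10 lower for ESC against MEF. A pseudocount of 4 gave 3 higher for brain NSC and 3 lower for iPSC against MEF, and 0 lower for each converted line against brain NSC. A minimum of 8 RPKM gave 1 and 0 lower in those. Without a minimum, the median of members minus that of all genes was 0.75 and 0.70 for the Tomato-positive and Tomato-negative lines against day 6. Without member exons of copied sequence, also chosen after seeing the data, 1 was lower for Tomato-positive OSKM NSC against day 6 and 9 for ESC against MEF, and 3 ratios reversed: Ndufs5 to -0.67 and Cox6a1 to 1.56 for day 6 against MEF, and Cox6a1 to -0.20 for Tomato-negative OSKM NSC against day 6. Of the ratios of single members, 1615 stayed past 2-fold and 125 did not. The 1615 include ratios that could not fall below 2-fold by the setting itself. These were 162 without a minimum, 162 at a pseudocount of 0.25 and 153 at a minimum of 8 RPKM. The causes were not tested.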
